A study of Rattus norvegicus with 8 samples.

Results

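The genes described here build and cross-link the fibrous matrix of the lung: collagen chains, elastin and its microfibril partners, and the enzymes that modify and join them. They were chosen by name as every probe on the array named for a collagen alpha chain, the lysyl oxidases (Lox, Loxl), the procollagen lysyl hydroxylases (Plod), the procollagen prolyl hydroxylases (P4ha), the fibulins (Fbln), the fibrillins (Fbn), elastin (Eln) or Spon2. This gave 80 of 41012 probes and 50 of 35561 gene names. After a filter on dim spots, 47 of the 50 were among the 24183 names tested. Col11a1 and Col17a1 were not well above background on any array, and Col9a3 passed that mark on too few arrays to be tested.

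Lung RNA came from rats that first received 7 days of either normal saline or cobalt, the latter at 12.5 mg per kg. Hypobaric hypoxia, that is thin air equivalent to 30000 ft, then lasted 6, 12, 24 or 48 h. The 8 dual-channel arrays comprised saline at 6 h, 12 h, 24 h and 48 h and cobalt at 6 h, 12 h, 24 h and 48 h, with 1 array for each. The other channel of each array held 0 h RNA of the same pretreatment, so every value is a log2 ratio of hypoxia over 0 h. The labels give no strain, age or number of animals, and the 4 arrays of a pretreatment share their 0 h label. P-values therefore measure only the spread between arrays and durations, which may be technical. Where arrays are paired by duration, the spread over durations that both pretreatments share is taken out. The saline arrays (slide 1) carried hypoxia RNA in Cy5, whereas the cobalt arrays (slide 2) carried it in Cy3: pretreatment, slide, scan and dye cannot be told apart. In whole lung, fewer cells of a type and less RNA per cell cannot be told apart either.

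Fibrillar collagens form the load-bearing fibres of vessel and airway walls, while type IV collagen forms the mesh of basement membranes. P4HA subunits hydroxylate prolines, which keeps the triple helix stable at body temperature, and PLOD enzymes hydroxylate lysines. Lysyl oxidases act outside the cell on lysines of collagen and elastin to start their covalent cross-links. Elastin is laid down on a scaffold of fibrillin microfibrils with the help of fibulins. LOX, P4HA and PLOD2 genes are textbook targets of the hypoxia-inducible factors (HIF), and prolyl and lysyl hydroxylases themselves need oxygen.

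Each array held 45018 spots. Of those that were not controls, 57.7% to 67.2% were well above background in green and 63.5% to 72.7% in red. All 8 markers of lung epithelium on the array were bright enough to be tested. Over all tested names, arrays of a pretreatment correlated at 0.41 to 0.75, and arrays of different pretreatments at -0.10 to 0.27. Among the tested members, 40 of 47 were well above background in both channels of all 8 arrays. The other 7 were Col2a1, Col8a2, Col10a1, Col14a1, Col22a1, Loxl4 and Fbn2, which were dim in at least 1 channel of some arrays. For Col14a1 and Col22a1 a channel was dim throughout a pretreatment, and their bounds, at least 1.01-fold higher in saline and at least 1.07-fold lower in cobalt hypoxia RNA, are near no change. The bound is the bright channel's mean over, per array, the higher of the dim probe's own signal and the lowest signal well above background. Saturated spots occurred for Col3a1 on 5 arrays, Col4a1 on 2 and Loxl1 on 1.

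In the mean of saline and cobalt arrays, Lox, P4ha2, Plod2, Plod1, Loxl2, 3 of the 4 type IV collagen chains, Col5a3, Eln and Fbn2 rose. Spon2, Fbln1, Fbln2 and the collagens Col15a1, Col27a1, Col23a1 and Col22a1 fell. By limma with Benjamini-Hochberg adjustment (adjusted p under 0.05), 11 of the 47 members were higher, 7 lower and 29 not called. Over all tested names 31.9% were called in this comparison, 15.7% as higher and 16.3% as lower, so 18 of 47 is close to that background. When duration was added to the fit, so that arrays of equal duration formed pairs, 13 members were called higher and 12 lower (31.8% of all names called). The 5 added as lower were Col1a2, Col3a1, Col5a2, Col11a2 and Fbn1. Arrays of a pair differ in pretreatment, slide and dye. The paired fit takes the course shared by both pretreatments out of the error, so its p-values do not cover the spread over durations. Col1a2 and Fbn1 were above 0 at 48 h in both pretreatments, so lower describes their mean over durations. The members' median ratio was 0.06, against 0 for all names. By role, the counts higher and lower were 5 and 0 of 11 enzymes, 3 and 1 of 10 basement membrane and network collagens, 2 and 3 of 7 elastic fibre genes, 1 and 1 of 9 fibrillar collagens, and 0 and 2 of 10 other collagens. Spon2, 1 of the 3 lower, was counted with the elastic fibre genes by the grouping used here alone. The average is the comparison in which dye orientation is balanced.

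**Figure D1:**
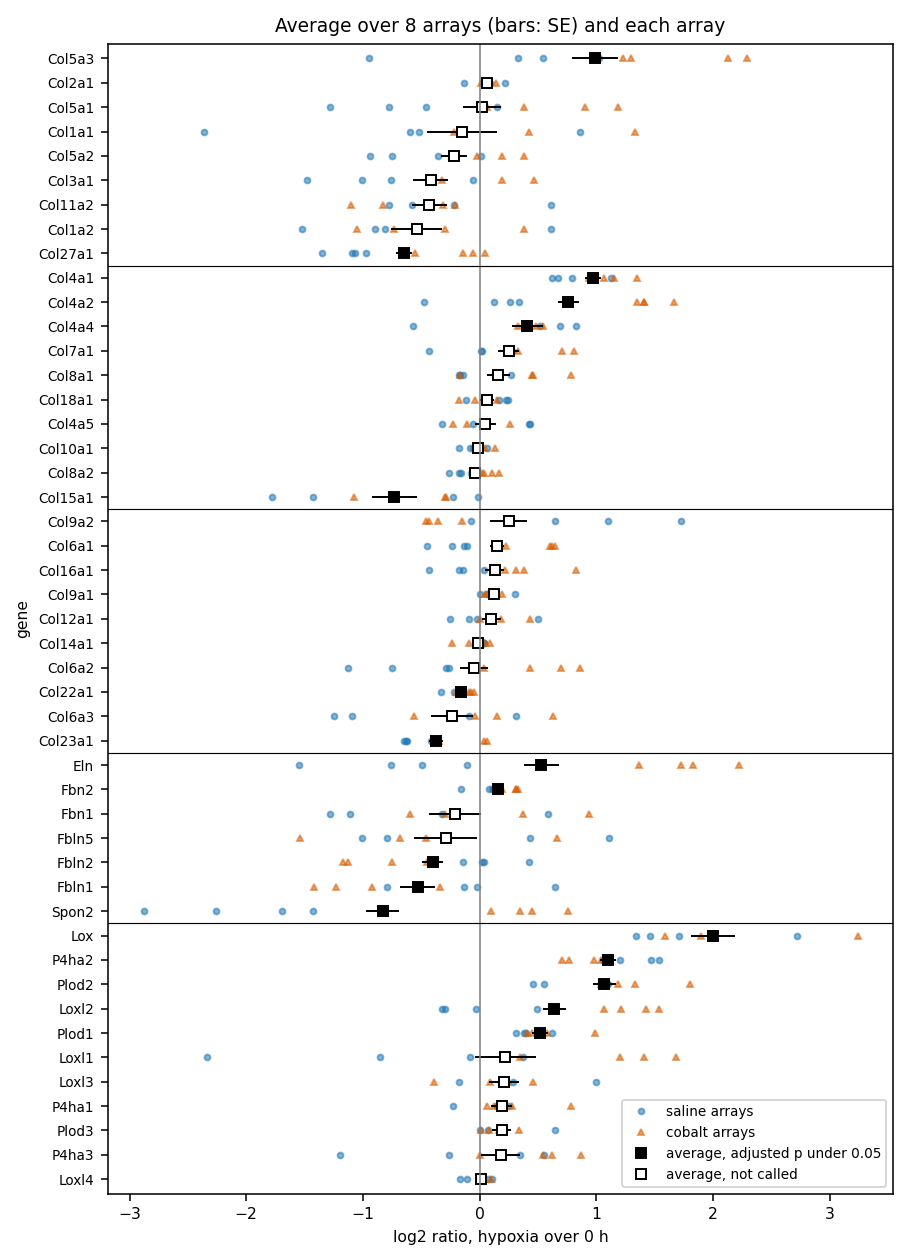
Log2 ratio of hypoxia over 0 h (horizontal axis) for the 47 tested members, grouped by role from fibrillar collagens (top) to enzymes (bottom). Squares are averages with SE bars, filled where adjusted p was under 0.05; circles are the 4 saline arrays and triangles the 4 cobalt arrays. Lox stands alone at 2.00, and the saline and cobalt arrays of Eln, Spon2 and Loxl2 do not overlap.

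Lox, the lysyl oxidase that starts collagen and elastin cross-links, had the highest ratio of all members. On the saline arrays it stood at 2.72, 1.71, 1.34 and 1.46 at 6, 12, 24 and 48 h, and on the cobalt arrays at 3.24, 2.00, 1.59 and 1.90. All 8 arrays were above 0, with the 6 h array highest in each pretreatment. The average was 2.00 ± 0.19 (SE, n = 8 arrays), a 3.99-fold increase (limma, adjusted p = 0.00016). The dimmer Lox probe averaged 1.70 and followed the brighter one with r = 0.89 over the 8 arrays.

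P4ha2, a catalytic subunit of prolyl hydroxylase, rose 2.14-fold. Its saline ratios were 1.54, 1.47, 1.20 and 1.06 in order of duration, and its cobalt ratios 1.04, 0.71, 0.98 and 0.77. Every array was above 0 and the average was 1.10 ± 0.07 (adjusted p = 1.61e-05). Its call as higher within cobalt did not hold with median centring, an alternative normalisation. P4ha1, the other main catalytic subunit, was not called at 0.19 ± 0.09 (adjusted p = 0.115), with 7 of 8 arrays above 0. P4ha3, the third catalytic subunit, averaged 0.18 ± 0.17, with -1.20, -0.26, 0.35 and 0.55 in saline and 0.00, 0.62, 0.54 and 0.87 in cobalt.

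Plod2, the lysyl hydroxylase that favours stable pyridinoline cross-links, rose 2.10-fold. It measured 1.10, 1.09, 0.46 and 0.55 on the saline arrays and 1.80, 1.19, 1.33 and 1.04 on the cobalt arrays. The average was 1.07 ± 0.10 (adjusted p = 0.00016), again with all 8 arrays above 0. A second, dim Plod2 probe averaged 0.71, with r = 0.36 to the first. Plod1, the broad-acting lysyl hydroxylase of collagen helices, rose by 0.52 ± 0.07 (adjusted p = 0.000867) with a range of 0.31 to 0.99, while its dim second probe averaged 0.15. The Plod1 call within cobalt did not hold with median centring. Plod3, which also glycosylates collagen, was not called at 0.19 ± 0.08.

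Among the lysyl oxidase-like genes, Loxl2, which cross-links type IV collagen, was called at 0.64 ± 0.10 (adjusted p = 0.00136). Its saline ratios of -0.30, -0.32, -0.03 and 0.49 lay below every cobalt ratio (1.07, 1.21, 1.54 and 1.43), so the average mixes unlike values. Loxl1, which binds elastic fibres, ranged from -2.34 to 1.68 and was not called on average (0.22 ± 0.26). Loxl3 was not called at 0.21, with -0.18, 0.18, 0.29 and 1.00 in saline and -0.39, 0.09, 0.24 and 0.46 in cobalt. Its second probe averaged 0.02 and correlated with the first at only 0.20. Loxl4 stood at 0.01.

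P4ha2 and Plod2 are printed with the 250 bases before their starts. The reason is that, among the 38 members matched to a promoter, their windows held the most copies of the HIF core motif. It was searched as ACGTG or GCGTG on both strands. The sequences are RefSeq's, on build GRCr8, with matches in capitals (CACGT and CACGC are the same motif on the other strand). P4ha2 lies at chr10:38743644-38743893 (plus strand) with 5 matches, and Plod2 at chr8:101964068-101964317 (plus strand) with 4.
P4ha2: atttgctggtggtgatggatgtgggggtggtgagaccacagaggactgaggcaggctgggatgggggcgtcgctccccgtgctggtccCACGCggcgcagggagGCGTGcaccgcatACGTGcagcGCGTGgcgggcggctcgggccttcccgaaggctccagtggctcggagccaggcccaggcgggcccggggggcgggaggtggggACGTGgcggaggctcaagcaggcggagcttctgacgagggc
Plod2: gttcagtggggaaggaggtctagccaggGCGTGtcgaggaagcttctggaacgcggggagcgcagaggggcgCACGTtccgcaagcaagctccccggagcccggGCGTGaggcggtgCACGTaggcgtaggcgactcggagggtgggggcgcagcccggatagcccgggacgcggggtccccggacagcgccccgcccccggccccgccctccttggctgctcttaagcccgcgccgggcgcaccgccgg
In P4ha2 the matches began 162, 146, 133, 124 and 41 bases before the start, and in Plod2 222, 178, 146 and 133. Windows with at least 4 matches made up 2.44% of all 33469 promoters, and windows with at least 1 made up 36.7%. Of the 50 members, 38 were matched to a promoter by symbol, and 17 of these 38 held at least 1 match. These were 7 of 8 members called higher, 2 of 5 called lower and 8 of 23 not called. The 12 members without a promoter were not searched. Among them were Lox, Eln and Loxl2, called higher, and Fbln1 and Col22a1, called lower. Col4a5, a basement membrane collagen that was not called, was the remaining member of the 38 with ACGTG, which 16.6% of all promoters held. A match is a stretch of letters and shows no binding.

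Type IV collagen chains and Col5a3 were the collagens called higher. Col4a1, a chain of the ubiquitous basement membrane trimer, read 0.79, 0.67, 1.13 and 0.62 on the saline arrays and 1.07, 1.35, 1.15 and 0.94 on the cobalt arrays. Its average was 0.97 ± 0.07 (1.95-fold, adjusted p = 3.44e-05), and all 8 arrays were above 0. Its call within cobalt did not hold with median centring. The other Col4a1 probe, 112 kb away on build rn3, averaged 0.07, the widest disagreement among the 20 members with several probes kept, of which 19 agreed within 0.4. Col4a2, its partner chain, read 0.34, -0.48, 0.12 and 0.26 in saline and 1.41, 1.35, 1.67 and 1.41 in cobalt, so its average of 0.76 ± 0.09 (adjusted p = 0.0004) came from the cobalt arrays. Col4a4, a chain of alveolar and glomerular basement membrane, was called at 0.41 ± 0.13 (adjusted p = 0.0438), but lost the call in 7 of the 8 fits that left out an array (0.33 to 0.42, all but the fit without saline 12 h) and with median centring (0.28). Its saline 12 h array read -0.57 and the other 7 arrays 0.33 to 0.83. Col4a5 was not called (0.05 ± 0.09).

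Col4a1 and Col4a2 are transcribed away from each other, and the 76 bases that separate their starts belong to both promoters. The stretch is shown, on the plus strand at chr16:84885521-84885596 (GRCr8), because both genes were called higher; it holds neither ACGTG nor GCGTG and so has no capitals.
Col4a1 and Col4a2 shared promoter: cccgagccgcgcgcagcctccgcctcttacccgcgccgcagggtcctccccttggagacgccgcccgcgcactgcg

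Col15a1, a collagen between basement membrane and the underlying stroma, averaged -0.73 and was lower (SE 0.19, adjusted p = 0.017). Its saline ratios were -1.78, -1.43, -0.23 and -0.01 and its cobalt ratios -1.08, -0.30, -0.72 and -0.29. No array was above 0, and the 6 h arrays were lowest. The endostatin-bearing Col18a1 (0.06), the anchoring-fibril collagen Col7a1 (0.25), Col8a1 (0.16), Col8a2 (-0.04) and Col10a1 (-0.01) were not called.

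The genes grouped as elastic fibre genes, with Spon2 among them by that grouping alone, split. Eln, elastin, was called higher on average at 0.53 ± 0.15 (adjusted p = 0.0204), but read -1.55, -0.76, -0.49 and -0.11 in saline and 2.22, 1.73, 1.37 and 1.83 in cobalt. The 2 sets of arrays lie on opposite sides of 0, and the call was lost without the cobalt 6 h array (0.46) or the saline 24 h array (0.49). Spon2, a secreted F-spondin relative, stood at -0.83 ± 0.14 (0.564-fold, adjusted p = 0.00266), with -2.88, -2.26, -1.43 and -1.69 in saline and 0.35, 0.76, 0.10 and 0.45 in cobalt. Fbln1 and Fbln2, fibulins of vessel walls and basement membranes, fell by 0.53 (SE 0.15, adjusted p = 0.0279) and by 0.40 (SE 0.09, adjusted p = 0.0112). Fbln2 read -0.14, 0.04, 0.02 and 0.42 in saline and -1.17, -1.13, -0.75 and -0.45 in cobalt, without overlap. Fbln1 read -0.13, -0.02, -0.79 and 0.65 in saline and -1.23, -1.42, -0.92 and -0.34 in cobalt, with overlap. The Fbln1 call was lost with the mean over its probes (-0.46) and in 6 of the 8 fits that left out an array, all but those without a 48 h array (-0.54 to -0.41). Fbn2, a fibrillin of developing microfibrils, was called at 0.16 ± 0.04 (adjusted p = 0.0136), though its 0 h signal was well above background on only 1 of 4 cobalt arrays.

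Of the fibrillar collagens, Col5a3 and Col27a1 were called on average, and the calls of others depended on the pairing of arrays. Col1a1 and Col1a2, the chains of type I collagen, averaged -0.15 ± 0.30 and -0.54 ± 0.22, and Col3a1, the single chain of type III, averaged -0.42 ± 0.15 (adjusted p = 0.0543). None of these was called in the fit without pairs, but with arrays paired by duration Col1a2 (limma, adjusted p = 0.00323), Col3a1 (adjusted p = 0.00441) and Col5a2, at -0.22 (adjusted p = 0.0343), were called lower. These calls concern the mean over durations: at 48 h Col1a2 read 0.61 in saline and 0.38 in cobalt. Col5a3, a minor chain of type V collagen, which sets fibril diameter, was called higher at 0.99 ± 0.20 (1.98-fold, adjusted p = 0.00572). It read -0.95, 0.54, 1.02 and 0.33 in saline and 1.30, 2.13, 2.29 and 1.23 in cobalt, with the saline 6 h array the only one below 0. Col27a1, a fibrillar collagen best known from cartilage, fell by 0.65 (SE 0.07, adjusted p = 0.000363), with 7 of 8 arrays below 0 and the saline arrays between -1.35 and -0.97. Col11a2 was not called (-0.43 ± 0.15) without pairs and was called lower with them (limma, adjusted p = 0.0408), and Col2a1, the cartilage collagen, stood near 0 at a dim signal.

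Among the other collagens, the transmembrane Col23a1 fell by 0.37 (SE 0.06, adjusted p = 0.00253). It read -0.63, -0.65, -0.62 and -0.42 in saline and -0.36, -0.35, 0.04 and 0.06 in cobalt, so the 2 late cobalt arrays were the ones not below 0. Col22a1, a dim collagen of tissue junctions, was called at -0.16 ± 0.03, and lost this call with median centring (-0.03). The chains of beaded-filament type VI collagen were not called: Col6a1 averaged 0.15, Col6a2 -0.05 and Col6a3 -0.24. Col6a1 and Col6a2 were below 0 on all 4 saline arrays (down to -1.13 for Col6a2 at 12 h) and above 0 on all 4 cobalt arrays. Col6a3 instead read -1.09, -1.25, -0.09 and 0.31 in saline and -0.56, 0.15, -0.04 and 0.63 in cobalt. Col9a1 (0.12), Col9a2 (0.25), Col12a1 (0.10), Col14a1 (-0.01) and Col16a1 (0.13) were not called either.

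**Figure D2:**
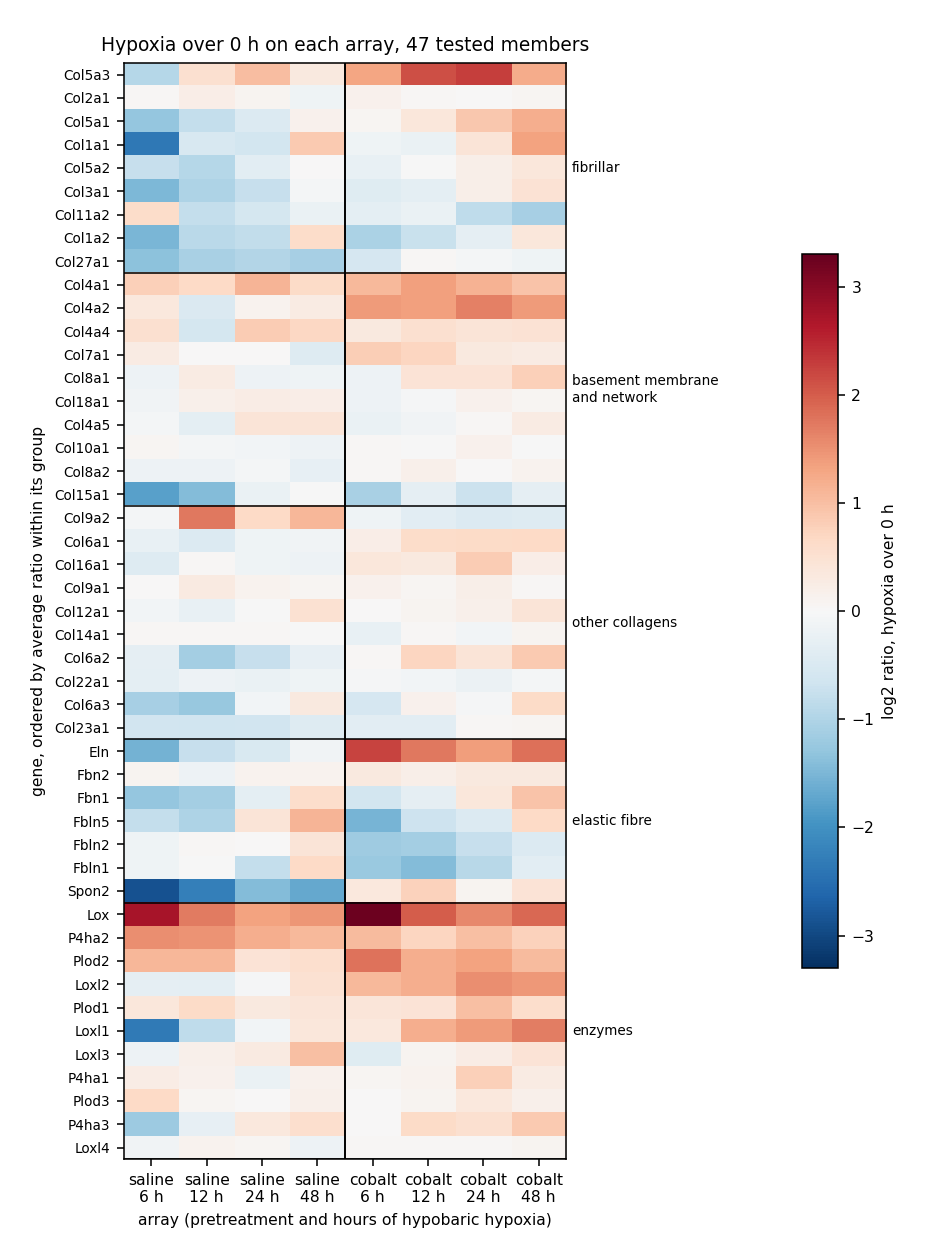
Log2 ratio of hypoxia over 0 h (colour) for the 47 tested members (rows, by role and average) on the 8 arrays (columns, saline left and cobalt right, by hours). Many fibrillar and elastic fibre rows run from blue at 6 h to red at 48 h, while the Lox row is darkest at 6 h.

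Over time, most fibrillar collagens, Fbn1, Fbln5 and Loxl1 had higher ratios at 48 h than at 6 h, whereas Lox and Plod2 had lower ones. Setting 24 and 48 h against 6 and 12 h uses arrays of 1 dye orientation and 1 slide within each pretreatment, so dye and shared 0 h RNA enter both sides alike. The members' median ratio went from -0.17 at 6 h to 0.18 at 48 h in saline, and from 0.03 to 0.43 in cobalt, while that of all tested names stayed between -0.03 and 0.03. For fibrillar collagens the medians over the 4 durations were -1.28, -0.78, -0.58 and 0.01 in saline and -0.24, -0.02, 0.19 and 0.38 in cobalt. For elastic fibre genes, with Spon2 counted among them, they were -0.79, -0.76, -0.32 and 0.42, then -0.60, -0.30, 0.10 and 0.45.

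With limma and Benjamini-Hochberg adjustment 0 of 47 members passed in this comparison, as did 0% of all tested names (lowest adjusted p among members 0.305). At an unadjusted p under 0.05, 17 members were higher late and 3 lower, against 6.45% and 6.43% of all names. In both pretreatments both late arrays lay above both early arrays for 14 members (6.22% of all names). These were Col1a2, Col3a1, Col5a1, Col5a2, Col4a5, Col18a1, Col6a1, Col12a1, Col23a1, Fbn1, Fbln5, Loxl1, Loxl2 and Loxl3. The opposite held for Lox and Col7a1 (5.66% of all names). The median late minus early difference was 0.23 for the members and -0.01 for all names.

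A linear trend over log2 of the duration, added after the data were seen, called 10 members higher late and 0 lower, against 1.11% and 0.959% of all names. These 10 were Col1a1, Col1a2, Col3a1, Col5a1, Col6a3, Fbn1, Fbln5, Loxl1, Loxl3 and P4ha3. Scaled to the late minus early step, Col5a1 rose by 0.85 ± 0.08 (limma, adjusted p = 0.00664) and Fbn1 by 1.17 ± 0.12 (adjusted p = 0.00923). The trend calls depended on single arrays, for the members as for all names. Without the saline 48 h array or without the cobalt 6 h array 0 members were called, and over all names 0 higher and 1 lower. Without the cobalt 48 h array 1 member (Col5a1) was called, with 11 higher and 7 lower over all names. Without the saline 6 h array 7 members were called higher, with 267 higher and 248 lower over all names. Leaving out any other array gave 5 to 11 members called higher, with 74 to 345 higher and 36 to 333 lower over all names. Without the saline 12 h array 1 member, Col7a1, was also called lower. With median centring 5 members were called higher, with 66 higher and 37 lower over all names.

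**Figure D3:**
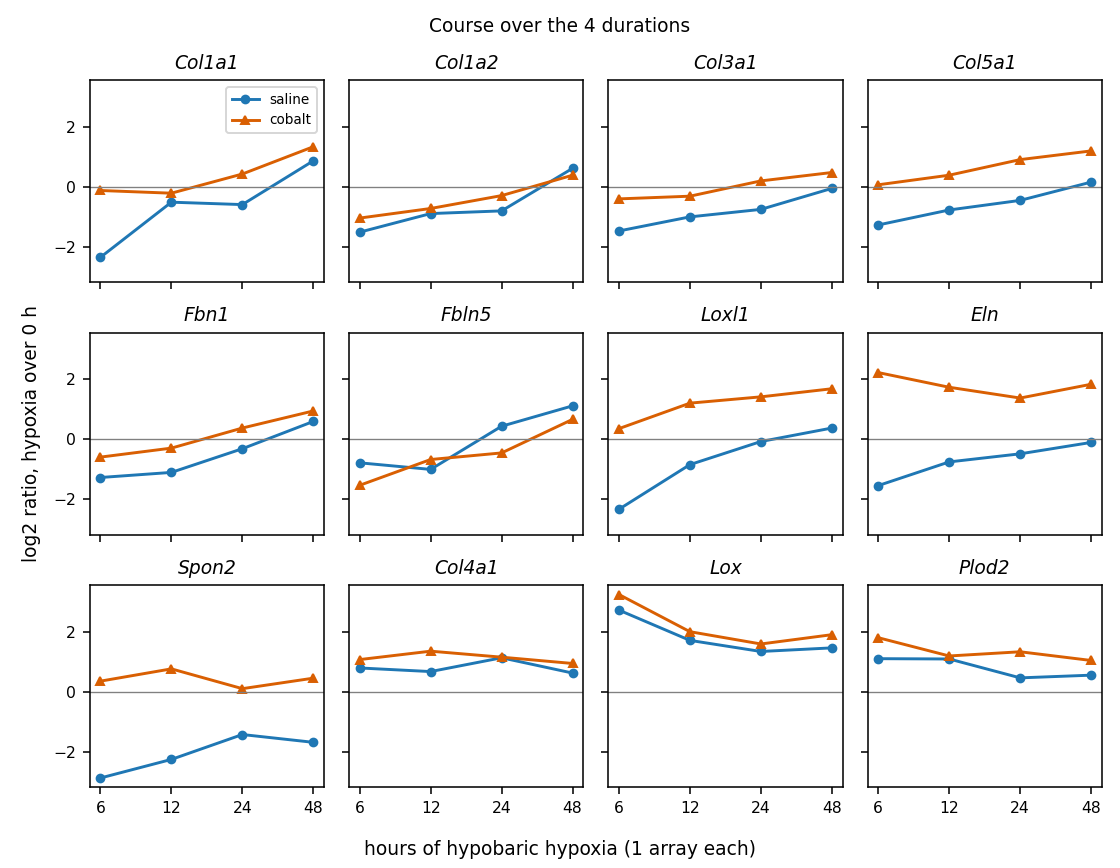
Log2 ratio of hypoxia over 0 h (vertical axis) against hours of hypobaric hypoxia (horizontal axis, equal steps per doubling) for 12 members; circles are saline and triangles cobalt, 1 array per point and so without error bars. Col1a1, Col1a2, Col3a1, Col5a1, Fbn1, Fbln5 and Loxl1 end higher than they start in both pretreatments, and Lox and Plod2 end lower.

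Fbn1, the main fibrillin of lung microfibrils, read -1.28, -1.11, -0.32 and 0.59 over the 4 saline durations and -0.60, -0.30, 0.37 and 0.94 over the cobalt ones. Its late minus early difference of 1.22 ± 0.22 had the lowest p of all members before adjustment (limma, adjusted p = 0.305). Fbln5, a fibulin needed to assemble elastic fibres, read -0.79, -1.01, 0.43 and 1.11 in saline and -1.54, -0.68, -0.46 and 0.66 in cobalt, a difference of 1.44 ± 0.30. Both genes were below 0 on both early arrays and above 0 at 48 h in each pretreatment. Eln did not follow: its saline ratios went from -1.55 to -0.11, but its cobalt ratios began at 2.22 and ended at 1.83.

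Col1a1 read -2.36, -0.52, -0.60 and 0.86 in saline and -0.13, -0.22, 0.42 and 1.33 in cobalt, with the 48 h array highest in each. Col1a2 read -1.52, -0.90, -0.81 and 0.61 in saline and -1.05, -0.73, -0.30 and 0.38 in cobalt. Col3a1 read -1.48, -1.01, -0.76 and -0.06, then -0.41, -0.32, 0.19 and 0.47. Col5a1, the main chain of type V collagen, read -1.28, -0.78, -0.46 and 0.15, then 0.06, 0.38, 0.90 and 1.19. All 4 were higher at 48 h than at 6 h in both pretreatments, as were 26 of the 47 members (29.3% of all names). Late minus early, they differed by 1.31 ± 0.46, 1.02 ± 0.32, 0.77 ± 0.18 and 0.85 ± 0.18. Loxl1 read -2.34, -0.85, -0.08 and 0.37 in saline and 0.35, 1.20, 1.41 and 1.68 in cobalt, a difference of 1.26 ± 0.33.

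Fibrillar chains are alike in sequence, so 1 probe each is shown for Col1a1, Col3a1 and Col5a2, a further type V chain. The Col3a1 probe gave the values above, whereas those of Col1a1 and Col5a2 are further probes of these genes, not the brightest ones that stood for them. Each is a 60-base oligonucleotide whose position the array files give on build rn3. Capitals mark the run of 8 bases that all 3 share, the longest found.
Col1a1, chr10:83652273-83652332 (plus strand): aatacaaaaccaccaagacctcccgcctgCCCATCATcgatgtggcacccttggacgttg
Col3a1, chr9:44318879-44318938 (plus strand): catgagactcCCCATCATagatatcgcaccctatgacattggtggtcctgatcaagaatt
Col5a2, chr9:44376974-44377033 (minus strand): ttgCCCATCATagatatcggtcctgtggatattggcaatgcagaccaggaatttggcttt
In the best ungapped overlap of at least 20 bases, Col1a1 and Col3a1 matched at 29 of 41 bases, Col1a1 and Col5a2 at 24 of 34, and Col3a1 and Col5a2 at 37 of 53. The Col1a1 probe shown read -1.15, -0.68, -0.83 and 0.52 in saline and -0.32, 0.24, 0.36 and 1.02 in cobalt. It was 1 of 3 Col1a1 probes, whose averages were within 0.05 of each other and which correlated at 0.91 or more over the 8 arrays. The 3 Col5a2 probes agreed within 0.01 and correlated at 0.97 or more.

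Lox differed late minus early by -0.85 ± 0.30 (limma, adjusted p = 0.336) and Plod2 by -0.45 ± 0.15 (limma, adjusted p = 0.327). P4ha2 differed by -0.19 ± 0.11 and Plod1 by 0.11 ± 0.12. Over the 8 arrays, the names in the files most like Lox by Pearson correlation were CF106934 (r = 0.97), M26926 (r = 0.96) and Cars_predicted (r = 0.96). Among the members the highest were Plod2 (r = 0.77) and Col7a1 (r = 0.70). These r describe 8 arrays of shared slides and 0 h RNA.

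Between pretreatments, Eln and Spon2 showed the widest gaps, with higher ratios in cobalt. The cobalt response minus the saline response was 2.52 ± 0.29 for Eln (adjusted p = 0.000424) and 2.48 ± 0.29 for Spon2 (adjusted p = 0.000439). Col4a2 differed by 1.40 ± 0.18, Loxl2 by 1.35 ± 0.19 and Col27a1 by 0.95 ± 0.15. In all, 15 of 47 members were called higher in cobalt and 3 lower (Fbln2, P4ha2 and Col9a2). Over all names 30.2% were called, 12.7% as higher and 17.5% as lower. Within saline 6 members were called higher and 10 lower against 0 h (40.1% of all names called, 21.8% higher and 18.4% lower), and with arrays paired by duration 7 and 16 (40.5% of all names called). Within cobalt 13 were called higher and 2 lower (20.8% of all names called, 8.52% higher and 12.3% lower).

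These values carry the dye and slide of each pretreatment, and they depend on the normalisation. With median centring in place of loess, the median difference of all tested names moved from -0.04 to -0.78 and that of the members from 0.26 to -1.13. The members called then numbered 10 higher and 28 lower (78.9% of all names called), in saline 22 higher and 7 lower (59.1%), and in cobalt 13 higher and 21 lower (80.5%). Of the 15 calls made within cobalt with loess, 9 held, and those of Col4a1, P4ha2, Plod1, Col16a1, Col6a1 and Col7a1 did not. Of the 18 differences called with loess, 8 kept sign and call: Eln at 1.15, Spon2 at 0.69, Col27a1 at 0.33, Fbn2 at 0.52, Col8a2, Col9a2, Fbln2 at -2.05 and P4ha2 at -2.47. Another 8 turned sign: Col16a1 went from 0.61 to -1.84, Col6a1 to -1.35 and Col7a1 from 0.55 to -0.82, all called lower, while Loxl1 (-0.60), Col5a1 (-0.45), Col6a2 (-0.16), Col4a2 (-0.08) and Loxl2 (-0.04) were not called. Col5a3 (0.26) and Col23a1 (0.06) kept their sign without a call. Only 5 of the 18, Eln, Spon2, Col27a1, Fbln2 and Col9a2, were called with 1 sign under every alternative and with every array left out (Col8a2 and Fbn2 were not tested under the strict filter). By contrast, 16 of the 18 calls of the average held with median centring, and 13 held under every alternative tried and every array left out. The 5 that did not were Col4a4, Col22a1, Eln, Fbln1 and Fbn2, of which Col22a1 and Fbn2 were not tested under the strict filter.

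**Figure D4:**
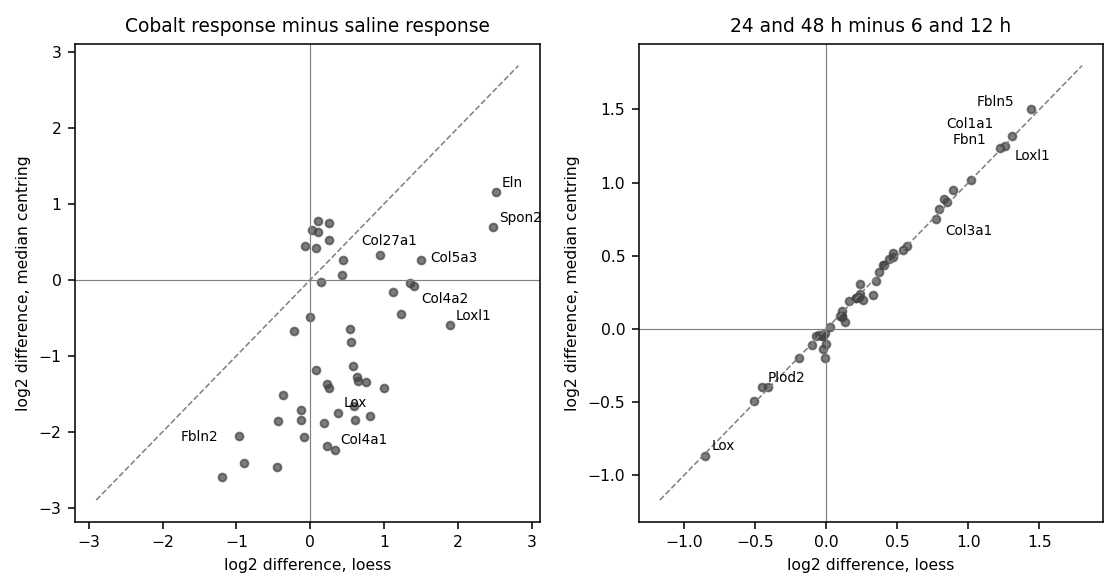
Log2 differences of the 47 tested members with median centring (vertical axis) against loess (horizontal axis), for cobalt response minus saline response (left) and for late minus early durations (right); each point is a gene and the dashed line marks equal values. On the left most points fall below the line, with the member median going from 0.26 to -1.13; on the right the points lie along it, the medians being 0.23 and 0.21.

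Genes that work with the members gave a mixed picture in the average, in which 15.7% of all names were called higher and 16.3% lower. Of 16 tested microfibril and elastic fibre partners, 2 were higher and 8 lower, with a median of -0.22. Mfap4, a microfibril-associated protein, fell by 1.29 (SE 0.21, adjusted p = 0.00209), and Mfap3 fell by 0.28 (SE 0.05). Efemp2, fibulin-4, which brings lysyl oxidase to elastin, rose by 0.68 ± 0.09 (adjusted p = 0.000671) with all arrays between 0.26 and 1.19. Of 16 genes of collagen folding, secretion and processing, 2 were higher and 3 lower. Among them Bmp1, the procollagen C-proteinase, fell by 0.56 (SE 0.10, adjusted p = 0.00364) and the N-proteinase Adamts14 by 0.27. Tll1, a Bmp1 relative, fell by 0.16.

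Of 7 small leucine-rich proteoglycans, which decorate collagen fibrils, 2 fell: Ogn and Fmod, each at -0.82. Prelp was not called (-0.25). Of 11 laminins and basement membrane partners, 0 were higher and 3 lower, among them Lamc3 (-0.21) and Lamb3 (-0.21). Of the type IV collagen chains 3 of 4 were higher, each with a limit. The other Col4a1 probe averaged 0.07, the Col4a2 average came from the cobalt arrays, and Col4a4 lost its call in most fits that left out an array. Of 12 other matrix glycoproteins, 4 were higher and 2 lower. Fn1, fibronectin, rose by 0.85 ± 0.11 (adjusted p = 0.000618), mostly on the saline arrays (1.06 to 1.62, against -0.11 to 0.85 in cobalt). Smoc2 rose by 0.60 and Vtn, vitronectin, fell by 0.60. Of 6 collagen receptors, Itga2 (0.17) and Mrc2 (0.32) were called higher, and Itga11 was not called (-0.08).

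Markers of cells that make this matrix were read in the same fit. Of 7 smooth muscle markers, 6 were higher on average and 0 lower, with a median of 1.33 and array medians of 0.53 to 1.94. Des measured 2.02 ± 0.08, Actg2 1.76 ± 0.08 and Cnn1 1.55 ± 0.10. Within saline 5 were higher and 1 lower, and within cobalt 7 were higher. The one lower in saline was Myh11, at -0.78, -1.03, -0.60 and 0.10 in saline and 0.69, 0.85, 1.44 and 1.26 in cobalt. Lmod1 was not called in saline (-0.06). Smooth muscle is a source of elastin, Lox and type IV collagen, and the markers' part in those ratios was not tested. Of 8 fibroblast markers, 1 was higher (Scara5, 0.17) and 0 lower, and their array medians went from -0.36 at 6 h to 0.23 at 48 h in saline and from -0.24 to 0.20 in cobalt. The markers did not run alike: over the same times Meox2 went from -2.05 to 0.23 and from -1.69 to 0.18, Lum from -0.45 to 1.16 and from -1.06 to 1.09, but Pdgfra from 0.74 to -0.32 and from 0.78 to -0.71. Dcn went from 0.64 to 0.27 and from -0.33 to 0.13. Meox2 and Tcf21 were not called in the average. Their part in the course of the fibrillar collagens was not tested.

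Of 7 endothelial markers, 0 were higher and 4 lower (median -0.24), with Plvap at -1.67, Kdr at -0.58 and Tek at -0.52. The fall was mostly on the saline arrays. Within saline 6 were lower (median -0.92, 18.4% of all names lower). Within cobalt 1 was higher and 1 lower (median -0.02, 8.52% and 12.3% of all names). Plvap stood at -2.26 in saline and -1.08 in cobalt, Tek at -0.97 and -0.08, and Tie1 at -1.14 and 0.68. Of 7 pericyte markers 2 were higher (Cspg4 at 1.15) and 2 lower (Abcc9 at -0.72, Rgs5 at -0.52). Of 5 tested cartilage markers 1 was higher (Comp, 0.37) and 1 lower (Matn4, -0.38), and Sox9 was not called. Of 2 mesothelial markers 1 was higher (Msln, 0.43), and Upk3b was not called. Of 7 skeletal and cardiac muscle markers 3 were higher (Acta1, Actc1 and Tnnt2), of 8 lung epithelial markers 1 was higher (Foxj1) and 3 lower (Aqp5, Ager and Sftpa1), and of 7 blood and leukocyte markers 2 were lower (Ptprc and Lyz). Some of these averages mix unlike values. Sftpa1 stood at -0.89 in saline and 0.51 in cobalt, and Lyz at -1.17 and 0.45. Foxj1 stood at 1.18 in saline and -0.20 in cobalt, and Tnnt2 at 2.08 and -0.01. Within saline 6 of the 7 muscle markers were called higher (21.8% of all names). On the saline arrays Myh6 read -0.12, 2.85, 0.23 and 3.73 in order of duration. Myh7 read -0.02, 2.07, -0.09 and 2.89 there. Both were highest at 48 h, and on the cobalt arrays both stayed between -0.47 and 0.20. Acta1, Actc1, Aqp5, Ager and Ptprc had the same sign in both pretreatments. The part of all these markers in the members' ratios was not tested.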

How the data were processed

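Scanner files of 8 arrays were read. Per the file headers, the scanner software (Agilent Feature Extraction, version 9.5.1.1) wrote each spot's mean signal and local background, both of unit intensity. The deposited LogRatio column of that software is log10 of red over green. The deposited series matrix holds values that follow the software's ratios turned to log2 of hypoxia over 0 h (r of at least 0.999992 per array, every column median 0); its normalisation is not given in the sources used here.

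Intensities were background-corrected by normexp (offset 50) and normalised by loess within each array in limma 3.58.1 (R 4.3.3, with the package data.table, version 1.17.8), without control spots in the fit. Outlier-flagged spots were dropped. A probe was kept if green or red was well above background on 4 or more of the 8 arrays, which held for 69 of the 80 member probes. The brightest probe stood for each name. limma was fitted over all 24183 names, with a variance trend over intensity. It was also run on simulated data with independent noise per array. These held no shared 0 h RNA, dye or slide effect, so they cannot test those limits of the p-values. Names are those of the array files, without _predicted or _mapped. Promoters were matched by symbol for 38 of 50 members; 12 were not in the table used.

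Members, gene lists and tests were chosen with earlier results of these data known. Named were, per role, the 4 members with the lowest p in the average, the 5 with the lowest p in the difference and in late against early, 16 genes listed for their known roles and the 3 lowest p of each list, of which 1 is not reported here. Other members are named after their values were seen. Alternatives were the software ratio, no background subtraction, median centring, the series matrix, no filter, a strict filter, the mean over probes, no variance trend, a factor for duration, and the omission of each array in turn.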

Additional observations from a re-analysis of the deposited data

Results flagged for a closer look

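The cobalt response differed from the saline response in limma's test of the difference for 13 of the genes named by rule. That rule took 5 of them, Eln, Spon2, Col4a2, Loxl2 and Col27a1, for their low p in this same test. The 13 are thus partly chosen by their outcome. Over all names 30.2% were called in this comparison. The difference in log2 ratio was 2.52 for Eln, 2.48 for Spon2, 1.89 for Loxl1, 1.50 for Col5a3, 1.40 for Col4a2, 1.35 for Loxl2, 1.23 for Col5a1, 0.95 for Col27a1, 0.76 for Col6a1, 0.43 for Col23a1 and 0.25 for Fbn2, all higher in cobalt. It was -0.96 for Fbln2 and -0.45 for P4ha2, lower in cobalt. With median centring Col4a2, Col5a1, Col6a1, Loxl1 and Loxl2 of these 13 changed sign, and Col23a1 and Col5a3 lost the call. Leaving out 1 array ended the call of Fbn2 for any of the 8 arrays (0.18 to 0.28), of Col23a1 for 5 (saline 6 h, 12 h and 24 h, cobalt 24 h and 48 h; 0.36 to 0.42), of P4ha2 for 5 (saline 6 h and 12 h, cobalt 12 h, 24 h and 48 h; -0.48 to -0.37), of Loxl1 for 3 (cobalt 12 h, 24 h and 48 h; 1.71 to 1.87), of Col5a3 for 2 (cobalt 12 h and 24 h; 1.37 and 1.32) and of Col5a1 without cobalt 24 h (1.14). Pretreatment, slide, scan and dye cannot be told apart in any of these values.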

How the results depend on the processing

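In the average of both pretreatments, the count of members called higher was 10 to 13 under every alternative other than leaving out an array. Over these alternatives the share of all names called, higher or lower, ran from 20.2% with no filter to 47.5% with median centring. Members called lower rose from 7 to 12 when duration was fitted as a factor, so that arrays of equal duration form pairs. That fit also moved the saline count called lower to 16. No paired analysis was possible by replicate number because each group holds 1 array, so duration was the only pairing fitted. With median centring, members called lower numbered 28 in the difference between pretreatments and 21 within cobalt, and members called higher within saline numbered 22. With the mean over probes, 1 member was called lower within cobalt. The linear trend, chosen after seeing the data, called 10 members higher late, where late against early called 0.

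Median centring reversed the difference between pretreatments for Col4a2 (-0.08), Col5a1 (-0.45), Col6a1 (-1.35), Loxl1 (-0.60) and Loxl2 (-0.04), and for Col16a1 (-1.84), Col7a1 (-0.82) and Col6a2 (-0.16), which makes 8 of the 18 called. It reversed the members' median in the difference (-1.13), in saline (0.45) and in cobalt (-0.35). The cause was not tested.

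Leaving out 1 array at a time gave, for members called higher and lower, 9 to 11 and 6 to 10 in the average, 5 to 7 and 6 to 14 in saline, 11 to 16 and 1 to 3 in cobalt, 9 to 15 and 2 to 4 in the difference, and 0 and 0 late against early. Over all names 22.7% to 31.1% were then called in the average and 31.3% to 39.5% in saline. In cobalt the share was 9.24% to 23.2%, and in the difference 21.5% to 30.2%. The count of 9 in the difference came without the cobalt 24 h array (21.5% of all names called). That of 6 in saline came without the saline 12 h array (31.3% of all names called). A lone array per duration limits every time value, and 7 members were dim.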
